A study of Rattus norvegicus with 30 samples.

Results

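Partially methylated autosomal CHH sites are cytosines followed by 2 bases other than G that carried methylation in part of the reads of medial prefrontal cortex (mPFC) DNA. A site was included where 10 or more of the 30 rats had a value, where the unweighted mean ratio over all rats with a value was over 0.1 and up to 0.9, and where the means of aged and young rats were no more than 0.8 apart. Of 660110 CHH sites called on chromosomes 1 to 20, 542241 had values in 10 or more rats and 13359 of these (2.46%) were partially methylated. All CHH sites called for aged and young rats, including those on other chromosomes, numbered 707223. The sites were thus chosen by the ratios of all 30 rats, so their level, and the size of their age difference up to 0.8, are descriptions and not results of a test.

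Whole genome bisulfite sequencing was carried out on the prelimbic and infralimbic mPFC of male Fischer 344 rats, with 10 young (5 to 6 months) and 20 aged (17 to 22 months) animals. All rats, young and aged, had been food restricted, trained on a visual discrimination and tested on a set shifting task before the tissue was taken, and received no other treatment that the labels name. The aged rats were divided by a mean split of their trials to criterion in the set shift into 9 that were impaired (aged impaired, AI) and 11 that were not (aged unimpaired, AU). The study asked how methylation relates to age and to impaired cognitive flexibility in aged animals. The tissue was whole cortex, so a ratio is an average over neurons and glia, and a change in the mixture of cells cannot be told apart from a change within a cell type. Trials to criterion per rat were not used here, and AI and AU rats entered the comparison as groups.

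In most tissues methylation of mammalian DNA is found mainly at CpG sites. Neurons are an exception, because the methyltransferase Dnmt3a adds methyl groups to cytosines outside CpG during postnatal maturation, mostly at CA dinucleotides. CHH sites hold a large part of this non-CG methylation. Since bisulfite sequencing reads 5-methylcytosine and 5-hydroxymethylcytosine alike, and an unconverted cytosine as methylated, the ratio at a CHH site covers all of these.

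The values are methylation ratios from 0 to 1, the share of reads that kept a cytosine, for each rat in which at least 5 reads covered the site. The number of reads behind a ratio was not part of these values, and at the minimum of 5 reads a ratio moves in steps of 0.2, so no interval is given for a ratio of 1 rat. The ratios came as 2 sets of calls, 1 for age and 1 for impairment. Of the partially methylated CHH sites, 12295 were in both sets, and 99.9% of their 156996 ratios of aged rats were the same in both. At 52 sites, however, at least 1 aged rat had another ratio or a value in only 1 of the sets, and at 47 of these a ratio moved by more than 0.5. The site at position 54908357 of chromosome 1 had ratios from 0.545 to 0.783 (median 0.621) in the 7 AI rats with a value in the calls for age, and 0 in all 9 AI rats in the calls for impairment. The AU rats had the same ratios in both, from 0.526 to 0.733 in 8 rats. The counts of called sites for age and for impairment over the whole set are therefore given with and without these 52 sites. Young rats were in the calls for age only, so their ratios could not be compared between the sets. The rat identifiers fall into 3 number series, called A (the lowest numbers; 11 aged and 3 young rats), B (the next; 8 aged and 3 young rats) and C (the highest; 1 aged and 4 young rats) here, which the study does not describe. Values were present at 8331 to 11590 of the partially methylated CHH sites in rats of series A, at 2864 to 7064 in series B and at 3159 to 11078 in series C.

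The mean ratio over all 542241 CHH sites with values in 10 or more rats was 0.0168 and the median was 0.00694. A mean at or under 0.1 was found at 97.4% of them, and 101 sites were over 0.9. A further 13861 sites fell between these limits, and 502 of them (3.62%) were set aside because the age groups were more than 0.8 apart, with aged rats higher at 337 and young rats higher at 165. The partially methylated sites had a median ratio of 0.166, with quartiles of 0.124 and 0.263. Most lay close to the lower limit, with 8357 sites (62.6%) up to 0.2, 2237 up to 0.3, 1649 up to 0.5, 709 up to 0.7 and 407 (3.05%) up to 0.9. The number of sites fell from the lower to the upper end of the window.

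**Figure D1:**
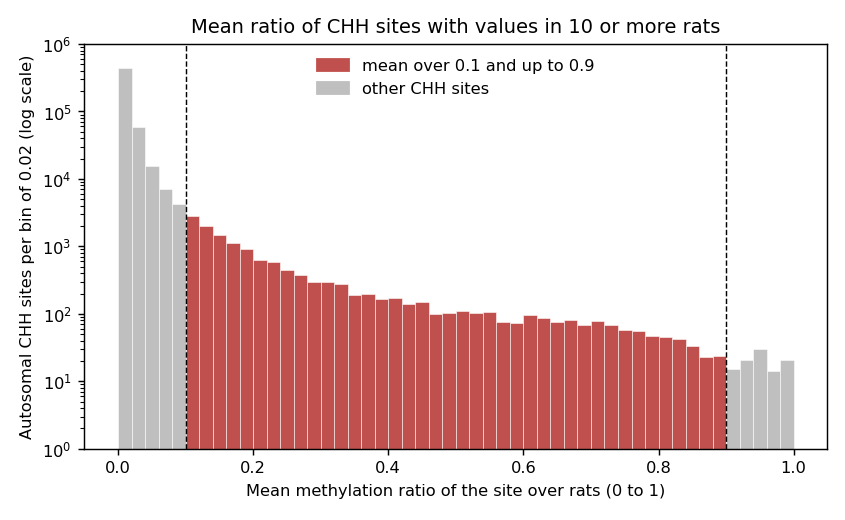
Number of autosomal CHH sites (log scale) by mean methylation ratio over rats (0 to 1, bins of 0.02), for the 542241 sites with values in 10 or more rats. Red bars mark the 13861 sites over 0.1 and up to 0.9, 502 of which were then set aside for an age difference over 0.8; grey bars to the left hold 528279 sites and those to the right 101.

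Around the limits of the rule the sites formed a continuum. On chromosome 15, position 9558572 had a mean of 0.100005 and was included, while position 253399011 of chromosome 1 had a mean of 0.1 and was not. At the upper limit, position 38320079 of chromosome 9 had a mean of 0.899 and was included, and position 23961108 of chromosome 17 had 0.901 and was not. At the limit on the age difference, position 86942709 of chromosome 16 was included with aged rats at a mean of 0 and young rats at 0.8, and position 587750 of chromosome 3 was left out with 0 and 0.802. A mean within the window was found at 961 sites with exactly 10 rats and at 996 sites with 9.

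At a typical site, the measured ratios were spread over rats by nearly as much as the site was methylated. The part of read sampling in this spread, in the ratios of 0 and in their change with level was not tested. The SD between rats had a median of 0.133, with quartiles of 0.110 and 0.161. A ratio of 0 was found in a median of 20.8% of the rats at a site. In contrast, 2320 sites (17.4%) had no rat at 0, and at 772 sites (5.78%) 50% or more of the rats were at 0. This differed with the level, as 1.06% of the sites up to 0.2 had a non-zero ratio in every rat with a value, against 54.9% of those between 0.3 and 0.5 and 99.0% of those over 0.7. The SD was 0.121 at sites up to 0.2, 0.176 between 0.5 and 0.7 and 0.138 over 0.7. Across the 13359 sites, the means of young and aged rats went together (Pearson's r = 0.846, Spearman's rho = 0.611). This is a description across sites that share rats and reads and were held to an age difference of 0.8.

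Only 622 sites (4.66%) had a value in all 30 rats, and a typical site had values in 17, of which 12 were aged and 5 young. Sites with more values were less often partially methylated. The share was 2.70% of the 184442 sites with 10 to 14 rats, 2.33% of those with 20 to 24, and 1.88% of the 33073 sites with all 30. The number of rats with a value follows coverage, whose part in the level was not tested.

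The 622 fully covered sites show how far ratios at single sites varied. By the SD between rats, the most uniform was position 12996615 of chromosome 11, with a mean of 0.126 ± 0.0354 (SD, n = 30) and ratios from 0.0656 to 0.213. Its ratios were 0.0656, 0.143 and 0.213 (lowest, median, highest) in young rats, 0.0943, 0.111 and 0.169 in AI rats and 0.0870, 0.113 and 0.167 in AU rats. The groups overlapped, and AI and AU rats lay inside the range of the young. Position 188323987 of chromosome 1 (0.110 ± 0.0376, SD, n = 30) and position 209838326 of chromosome 4 (0.101 ± 0.0411, SD, n = 30) were next. At the other end, position 39082903 of chromosome 19 ranged from 0 to 0.833 around a mean of 0.377 ± 0.202 (SD, n = 30). There the lowest, median and highest ratios were 0, 0.298 and 0.833 in young rats, 0.0714, 0.438 and 0.5 in AI rats and 0.167, 0.348 and 0.8 in AU rats. Position 64048633 of chromosome 1 ranged from 0 to 0.875 and position 54911311 of chromosome 1 from 0.2 to 1, and the 3 groups overlapped at both. No group stood apart at any of these 6 sites. The most uniform sites had lower means than the most variable ones, and the number of reads behind their ratios is unknown. The part of level and of read sampling in this order was not tested.

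Partially methylated CHH sites were not spread evenly over the genome. Chromosome 19 held 2095 of them (15.7%), which was 5.19% of its 40370 CHH sites with values in 10 or more rats. Chromosome 9 followed with 1256 sites (3.23%), and on the other autosomes the share ran from 1.84% on chromosome 16 to 2.93% on chromosome 20. Without chromosome 19 the share over all autosomes was 2.24%. Chromosome 19 sites were mostly of low level, as in the whole set, and were a smaller part of the sites over 0.5. They made up 16.1% of the sites up to 0.2 and 18.95% of those between 0.2 and 0.3, but 6.63% of those between 0.5 and 0.7 and 4.18% of those over 0.7. By the same rule, chromosome 19 held 12.1% of 6546 partially methylated CHG sites and 4.75% of 53287 partially methylated CpG sites.

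**Figure D2:**
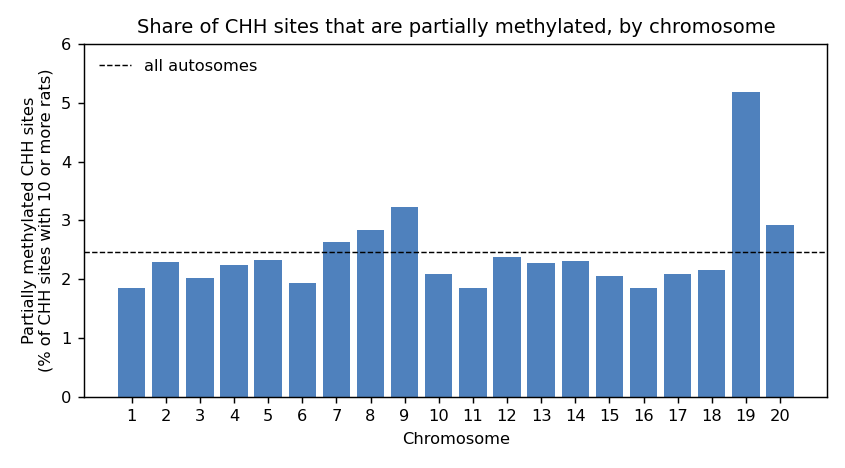
Share of CHH sites with values in 10 or more rats that were partially methylated (percent), for each autosome. Bars start at 0 and the dashed line is the share over all autosomes, 2.46%; chromosome 19 (5.19%) and chromosome 9 (3.23%) are the highest.

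A few windows held many of the sites. Counted in windows of 1 Mb, 10 windows held 25.3% of all partially methylated CHH sites, while 2458 windows had a CHH site with enough rats and 1819 had at least 1 partially methylated site. The largest was the window from 37 to 38 Mb on chromosome 19, with 602 of 10503 CHH sites (5.73%). The window from 0 to 1 Mb on chromosome 19 had 468 of 8073 (5.80%), the window from 11 to 12 Mb on chromosome 9 had 451 of 11541 (3.91%) and the window from 39 to 40 Mb on chromosome 19 had 430 of 7330 (5.87%). A window with many sites need not have a high share. The window from 56 to 57 Mb on chromosome 1 had the most CHH sites among the 20 windows with most partially methylated ones, 20100, of which 204 (1.01%) were partially methylated.

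Runs of neighbouring sites were then formed from partially methylated CHH sites less than 1000 bp apart, with at least 5 sites to a run. In total 494 runs held 5149 sites (38.5%). Of the sites up to 0.2, 39.7% were in runs, as were 43.3% of those between 0.2 and 0.3 and 37.4% of those between 0.3 and 0.5, against 22.4% of those between 0.5 and 0.7 and 21.4% of those over 0.7. The number of CHH sites with values is also very uneven, since 99.0% of all CHH sites with 10 or more rats lay in runs by the same definition.

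The longest run by number of sites, chr9:11295793-11308563 (rn5), held 69 partially methylated sites among 1625 CHH sites with values in 10 or more rats. Their median ratio was 0.168, and the highest was 0.592 at position 11297388. At that position the lowest, median and highest ratios were 0.375, 0.625 and 0.765 in 7 young rats, 0.3, 0.524 and 0.774 in 7 AI rats and 0.444, 0.646 and 0.727 in 8 AU rats. The 3 groups overlapped along nearly their whole range. The other 1556 CHH sites of the run had a mean of 0.0160, its 532 CHG sites a mean of 0.0285 and its 76 CpG sites a mean of 0.633. The mean of the other CHH sites follows in large part from the rule, which leaves out sites at or under 0.1.

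Among the 8 longest runs, chr4:209837471-209839917 (rn5) was the best covered, with values in all 30 rats at the median site. It held 55 partially methylated sites among 710 CHH sites (7.75%) within 2447 bp. The mean over these sites per rat was 0.217 ± 0.0242 (SD, n = 10) in young, 0.224 ± 0.0167 (SD, n = 9) in AI and 0.216 ± 0.0174 (SD, n = 11) in AU rats. Single rats lay between 0.186 and 0.271, and the groups differed by less than the SD between rats. The other CHH sites in this run had a mean of 0.0147, CHG sites 0.0327 and CpG sites 0.649.

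The remaining 6 of the 8 longest runs were all on chromosome 19. They were chr19:308302-315598 with 47 sites, chr19:37506465-37510963 with 44, chr19:39077005-39079673 with 43, chr19:246214-249662 with 42, chr19:37273223-37278724 with 42 and chr19:38899781-38906112 with 41 (all rn5). The densest was chr19:246214-249662, where 42 of 437 CHH sites (9.61%) were partially methylated. Median ratios of these 6 runs lay between 0.138 and 0.193, and the mean of the other CHH sites within them between 0.0145 and 0.0177. CpG sites in the same 6 runs had means from 0.697 to 0.764. In the run from 308302 the mean per rat was 0.177 ± 0.0661 (SD, n = 10) in young, 0.227 ± 0.0529 (SD, n = 9) in AI and 0.191 ± 0.0377 (SD, n = 11) in AU rats, and 1 rat was at 0 over the 1 site it covered. This was the widest separation of group means among the 8 runs, and it was smaller than the SD in young rats. The rat at 0 was young, so the young mean and SD include its 1 site, and neither was computed without it.

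Over short distances the sites were unevenly spaced. Of 1978 CHH sites that lay 1 bp downstream of a partially methylated one and had values in 10 or more rats, 293 (14.8%) were themselves partially methylated. The share was 14.6% of 4013 sites at 2 bp, 9.73% of 1943 at 4 bp, 7.07% of 2222 at 9 bp, 10.8% of 2317 at 11 bp, 7.73% of 2148 at 13 bp and 5.60% of 1857 at 21 bp. Between these distances it was lower, with 5.34% at 3 bp, 4.06% at 5 bp, 4.01% at 10 bp, 4.59% at 12 bp and 3.70% at 20 bp. Downstream of a CHH site that was not partially methylated the share was 1.24% at 1 bp, 3.14% at 2 bp, 2.30% at 10 bp, 2.43% at 11 bp and 2.07% at 21 bp. Without chromosomes 19 and 9 the shares were 15.9% at 1 bp, 12.0% at 11 bp, 2.68% at 10 bp and 5.73% at 21 bp. Among sites covered in all 30 rats, 14 of 79 (17.7%) were partially methylated at 11 bp and 28 of 105 (26.7%) at 1 bp. Sites this close share reads, and the files do not give the strand, so a pair may lie on the same strand or on opposite strands.

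**Figure D3:**
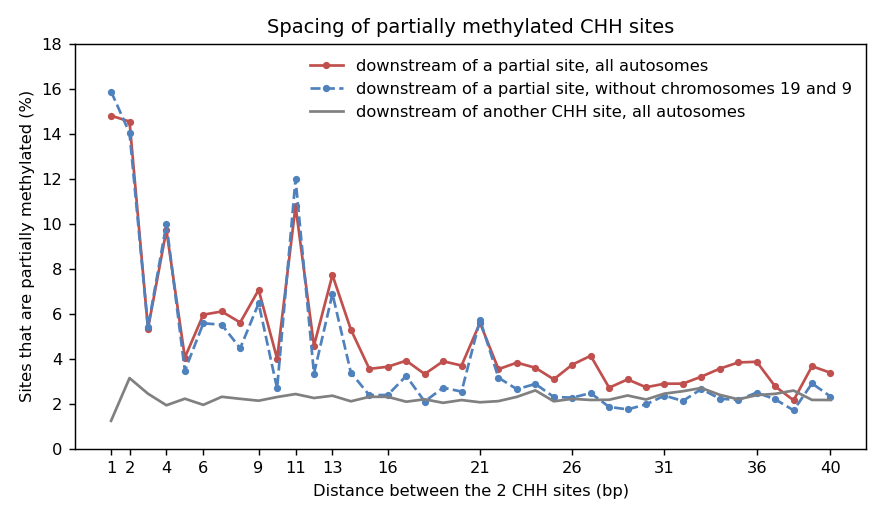
Percent of CHH sites that were partially methylated at each distance of 1 to 40 bp downstream of a partially methylated CHH site (red, all autosomes; blue dashed, without chromosomes 19 and 9) or of another CHH site (grey). Both coloured lines are high at 1, 2 and 4 bp and rise again at 11 bp (10.8% and 12.0%) and 21 bp (5.60% and 5.73%).

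The cytosines around the sites were looked at next, from the CpG, CHG and CHH sites with values in 10 or more rats. Within 20 bp, the mean ratio of CpG sites was 0.735 around the 5217 partially methylated CHH sites that had one and 0.696 around the 199405 other CHH sites. For CHG sites it was 0.0292 against 0.0203, and for other CHH sites 0.0302 against 0.0159. Within 100 bp the differences shrank to 0.701 against 0.696 for CpG, 0.0256 against 0.0224 for CHG and 0.0218 against 0.0164 for CHH. Neighbouring CHH sites were low even next to highly methylated ones. Around the 407 sites over 0.7 the mean of other CHH sites within 20 bp was 0.0225, against 0.0313 around the 8357 sites up to 0.2. Likewise, another partially methylated CHH site lay within 2 bp of 12.7% of the sites up to 0.2 and of 4.67% of those over 0.7.

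The mean over all partially methylated CHH sites with a value was nearly the same in the 3 groups. It was 0.236 ± 0.0116 (SD, n = 10) in young rats, which ranged from 0.217 to 0.250 with a median of 0.240. In AI rats it was 0.236 ± 0.00943 (SD, n = 9), from 0.222 to 0.250 with a median of 0.233, and in AU rats 0.234 ± 0.0156 (SD, n = 11), from 0.214 to 0.256 with a median of 0.231. At the 622 sites covered in every rat it was 0.259 ± 0.00910 in young, 0.257 ± 0.00606 in AI and 0.256 ± 0.0103 in AU rats (SD, same n). The groups overlapped and differed by less than the SD between rats on both measures.

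The number series, by contrast, separated the rats. Means over all sites with a value were 0.214 to 0.233 in the 14 rats of series A and 0.241 to 0.256 in the 11 rats of series B, so that these series did not overlap, and 0.222 to 0.247 in the 5 rats of series C. At these 622 sites they were 0.243 to 0.256 in series A, 0.254 to 0.276 in series B and 0.247 to 0.273 in series C. The rats of series B also had values at fewer sites, and the share of the 622 sites at a ratio of 0 was 9.73 ± 3.25% (SD, n = 11) in series B against 6.89 ± 1.22% (SD, n = 14) in series A. At the CHH sites with a mean at or under 0.1, series B was not higher (0.0104 against 0.0108 in series A). Within series A the mean over all sites was 0.221 in 3 young, 0.228 in 5 AI and 0.224 in 6 AU rats, and within series B 0.245 in 3 young, 0.245 in 4 AI and 0.253 in 4 AU rats. The part of coverage in this difference between the series was not tested.

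**Figure D4:**
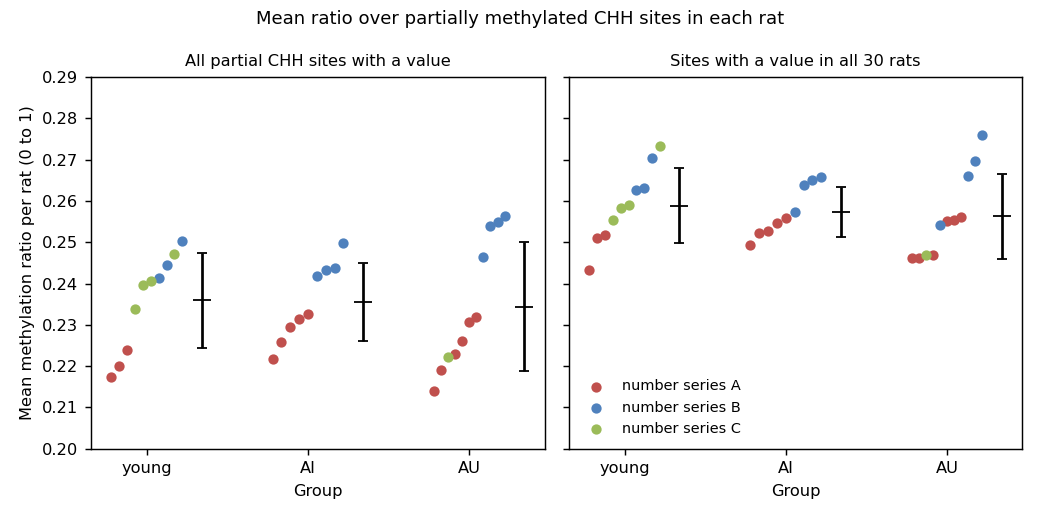
Mean methylation ratio per rat (axis from 0.20 to 0.29) over all partially methylated CHH sites with a value (left) and over the 622 sites covered in all 30 rats (right). Each point is 1 rat, coloured by number series and ordered by level within its group, and the bars show mean ± SD; the 3 groups overlap, and on the left series A (0.214 to 0.233) lies below series B (0.241 to 0.256).

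With age, ratios at single sites moved in both directions by similar amounts. These values are a description, since the age difference was part of the rule. The difference between aged and young rats had a median of 0.00185 over the 13359 sites, and 50% of the sites lay between -0.0483 and 0.0506. Of all sites, 812 (6.08%) had an unadjusted p under 0.05 in the test for unequal variances that the study applied to each site, beside 8.87% of all 27810 CHH sites tested. The aged rats were higher at 505 of the 13359 sites, beside 1448 of all 27810 tested (5.21%), and lower at 307, beside 1020 (3.67%). A permutation test at each site gave 713 (5.34%; 312 higher and 401 lower), beside 10.1% of all sites, so that the balance of directions depended on the test. Once p-values were adjusted by the Benjamini-Hochberg method over every CHH site tested, 77 passed (59 higher in aged rats), beside 627 of all 27810 tested (2.25%). Without the limit of 0.8 on the age difference 441 of 13754 sites passed, and 8.78% had an unadjusted p under 0.05. Without the rats of series A 4 of 6070 passed. Aged and young rats did not overlap at 84 sites (0.629%), beside 3.36% of all tested sites, which also hold sites beyond the limit of 0.8 on the age difference. Without the 52 sites whose ratios differed between the sets of calls, 767 of 13307 sites (5.76%) had an unadjusted p under 0.05, 44 passed the adjustment and 41 did not overlap between the age groups, and the permutation test gave 668 (5.02%). With those absent from the calls for impairment left out too, 703 of 12243 sites (5.74%) had an unadjusted p under 0.05, 38 passed the adjustment and 26 did not overlap. Of the 52 sites alone, 45 had an unadjusted p under 0.05, and in all 45 the aged rats were higher.

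Among sites with the same ratios in both sets and at least 5 rats in each age group, the smallest p, used here only to choose which sites to describe, was at position 94343483 of chromosome 14. The lowest, median and highest ratios were 0.6, 0.636 and 0.875 in 10 aged rats and 0 in all 9 young rats. At position 87993499 of chromosome 1 it was the young rats that were methylated, with 0.625, 0.7 and 0.833 in 7 young rats against 0, 0 and 0.143 in 20 aged rats. Position 5495260 of chromosome 12 had 0.4, 0.6 and 0.833 in 8 aged rats and 0 in 7 young rats, and at position 20127020 of chromosome 2 the ratios were 0, 0.2 and 0.4 in 19 aged rats and 0 in 7 young. The groups overlapped at this last site and not at the first 3. Position 11254720 of chromosome 9 had 0.667, 0.809 and 0.833 in 8 young rats and 0, 0.0588 and 0.8 in 11 aged rats, which overlapped by their highest rat. Apart from the site on chromosome 2, each of these sites was near 0 in most rats of 1 age group and at about 0.6 or more in most rats of the other. Only the site on chromosome 9 had a mean over 0.1 in both age groups, so the others entered the test by 1 group alone. The same ratios in both sets refer to aged rats only, because young rats were not in the calls for impairment. The ratios of young rats at these sites could not be checked in that way.

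The comparison of AI with AU rats was not part of the rule and can be tested. Of the 12295 partially methylated sites in the calls for impairment, 336 had a mean at or under 0.1 in both groups and were not tested, and 11959 were. The mean over all sites per rat was 0.233 ± 0.00991 (SD, n = 9) in AI and 0.233 ± 0.0159 (SD, n = 11) in AU rats in these calls. Within series A it was 0.226 ± 0.00481 (SD, n = 5) in AI and 0.222 ± 0.00710 (SD, n = 6) in AU rats. Within series B it was 0.243 ± 0.00397 (SD, n = 4) in AI and 0.252 ± 0.00436 (SD, n = 4) in AU rats. The AI minus AU difference had a median of 0.00214, and 51.0% of the sites were higher in AI rats. The study related impairment to each rat's behavioural score, which was not used here, so the groups were compared by the unequal-variance test that served for age. An unadjusted p under 0.05 was found at 548 sites (4.58%), beside 6.15% of all 27892 CHH sites tested. Of the 11959 sites, 266 passed this threshold with AI rats hypermethylated, beside 846 of all 27892 tested (3.03%). Another 282 passed with AI rats hypomethylated, beside 868 (3.11%). An exact permutation test at each site gave 521 (4.36%; 286 higher and 235 lower in AI rats), beside 5.88% of all sites, and limma 730 (398 higher and 332 lower), beside 8.45%, so that the balance of directions depended on the test here too. The share of 4.58% is below the 6.15% of all tested CHH sites in the same test, a set chosen by a different rule. It ranged from 4.32% to 6.27% between levels of methylation and was 4.13% on chromosome 19, 4.67% on the other chromosomes, 4.49% in runs and 4.65% outside them. The 2 groups did not overlap at 130 sites (1.09%), beside 2.76% of all tested CHH sites. For all tested CHH sites the filter on the ratio asked only for a mean over 0.1 in AI or AU rats. The partially methylated sites were also chosen by their mean over all rats, their number of rats and their age difference. The part of this choice in their lower shares was not tested.

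With p-values adjusted by the Benjamini-Hochberg method over every CHH site tested, 21 partially methylated sites passed, 6 higher and 15 lower in AI rats, beside 186 of all 27892 tested (0.667%). The count was 40 by limma, 11 without the limit of 0.1 on the group means and 0 without the rats of series A. However, 18 of the 21 were among the sites whose ratios differed between the sets of calls. Of the 38 such sites tested, 30 had an unadjusted p under 0.05 and 23 of them were lower in AI rats. At position 54908357 of chromosome 1, for example, the mean was 0 in 9 AI and 0.622 in 8 AU rats in the calls for impairment (exact permutation p = 4.11e-05), while in the calls for age 7 of these AI rats had a mean of 0.628 and the young rats 0.0025. Position 21922316 of chromosome 16 had 0 in 3 AI and 0.641 in 7 AU rats in the calls for impairment, and 0.577 in 7 AI rats in the calls for age. At both positions the AI rats, low in the calls for impairment, were near the level of the AU rats in the calls for age. Over the 11921 tested sites with the same ratios in both, 518 (4.35%) had an unadjusted p under 0.05, 259 in each direction, 3 passed the adjustment and 101 did not overlap between the groups, and the permutation test gave 490 (4.11%).

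**Figure D5:**
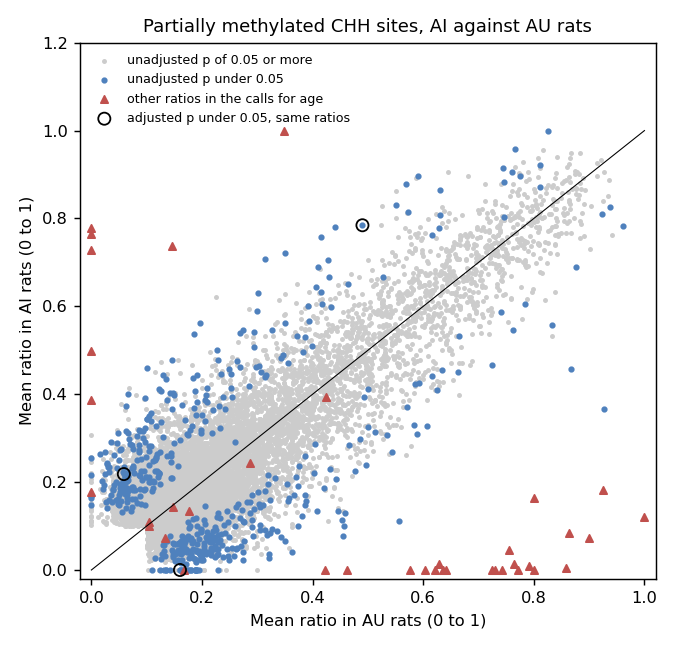
Mean methylation ratio (0 to 1) in AI rats (y axis) against AU rats (x axis) at the 11959 partially methylated CHH sites tested; the line marks equal means. Red triangles are sites whose ratios differ between the 2 sets of calls, mostly near 0 in 1 group and high in the other; open circles mark the 3 sites with the same ratios that passed the adjustment.

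The 3 sites that passed with the same ratios in both sets were in different places. They were picked by their p on these same rats, so the p-values below, also those within a series, are no further support. At position 24121929 of chromosome 16, the lowest, median and highest ratios were 0.143, 0.222 and 0.3 in 7 AI rats and 0, 0 and 0.182 in 11 AU rats. The AU rats of series A, 6 in number, were all at 0, while the AU rats of series B lay between 0.0714 and 0.182, so that the groups overlapped. The difference was 0.160 (0.218 ± 0.0629 in AI, 0.0587 ± 0.0720 in AU, SD), with an exact permutation p of 0.000377 (2-sided) and adjusted p of 0.0329 by the unequal-variance test and 0.0218 by limma over all sites. Within series A the 3 AI rats averaged 0.177 and the 6 AU rats 0 (exact permutation p = 0.0119), and within series B 0.249 and 0.130 in 4 rats each (exact permutation p = 0.0571). Position 188038131 of chromosome 1 had ratios of 0.7, 0.714, 0.8, 0.833 and 0.875 in 5 AI rats and of 0.4, 0.462 and 0.714 (lowest, median, highest) in 7 AU rats. One AU rat reached 0.714 and the groups overlapped by that rat. The means were 0.785 ± 0.0756 and 0.490 ± 0.110 (SD; exact permutation p = 0.00505, 2-sided; adjusted p = 0.0415 by the unequal-variance test), and within series A the 4 AI rats averaged 0.802 and the 5 AU rats 0.506 (exact permutation p = 0.0238). With the series as a covariate in limma the adjusted p of this site was 0.0589. Position 50311695 of chromosome 18 rested on the fewest rats, with 0 in 3 AI rats and 0.143, 0.143, 0.167, 0.167 and 0.182 in 5 AU rats. The groups did not overlap there, and the exact permutation p of 0.0179 is the smallest that 3 against 5 rats allow. The adjusted p was 0.00582 by the unequal-variance test and 0.250 by limma, and 7 of the 8 rats were of series A. The sites on chromosomes 16 and 18 entered the test by the mean of 1 group alone (AI and AU, respectively), the other being under 0.1. Without that filter on the mean none of the 3 passed, with adjusted p of 0.447 on chromosome 16, 0.561 on chromosome 1 and 0.0790 on chromosome 18 by the unequal-variance test.

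Among sites with at least 5 rats in each group, 3 more had the next smallest p and did not pass the adjustment in the unequal-variance test. These too were picked by their p on the same rats, so their permutation p is no further support. Each entered the test by the mean of 1 group alone, and without the filter on the mean the adjusted p of each was 0.597. At position 68560289 of chromosome 5, 4 of 5 AI rats were at 0 and the other at 0.111, and 6 AU rats were at 0.182, 0.25 and 0.429 (lowest, median, highest). The groups did not overlap (difference -0.252, exact permutation p = 0.00216, adjusted p = 0.0628 by the unequal-variance test and 0.0219 by limma). Position 105786663 of chromosome 9 was higher in AI rats, with 0.182, 0.273, 0.286, 0.3 and 0.4 in 5 AI and 0, 0, 0, 0.111 and 0.125 in 5 AU rats (difference 0.241, exact permutation p = 0.00794, adjusted p = 0.103 by the unequal-variance test, 0.0437 by limma and 0.158 by limma with the series as a covariate). Position 74105996 of chromosome 1 had 0.143, 0.167, 0.167, 0.2 and 0.286 in 5 AI rats and 0.111 in 1 of 5 AU rats with the other 4 at 0 (difference 0.170, exact permutation p = 0.00794, adjusted p = 0.119 by the unequal-variance test and 0.156 by limma). No AI rat overlapped an AU rat at either position.

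In each of the 8 longest runs, 0 to 4 sites had an unadjusted p under 0.05 between AI and AU rats, beside 6.15% of all tested CHH sites. In the run on chromosome 9 it was 2 of 64 tested sites, and in the run on chromosome 4 2 of 54. The most, and over that share, was 4 of 39 in chr19:39077005-39079673 (rn5), 2 of them higher in AI rats, and none of the tested sites in chr19:37506465-37510963 had one. No site in any of the 8 runs passed the adjustment, the smallest adjusted p being 0.441. Median AI minus AU differences of the runs lay between -0.0194 and 0.0273.

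Gene names could be given only where a CpG listed with a gene in the study's tables of sites lay within 1000 bp of a partially methylated CHH site. That was so for 706 sites (5.28%) near CpGs of 119 genes. The study chose these CpGs on the same rats, so the list is not independent evidence on age or impairment. Of the 639 sites tested, 25 (3.91%) had an unadjusted p under 0.05 for impairment, beside 6.15% of all tested CHH sites, 12 higher and 13 lower in AI rats, and none passed the adjustment in the unequal-variance test (smallest adjusted p = 0.0510). The unnamed locus LOC100363633 on chromosome 19 had the most, 110 sites between positions 37383660 and 37516928 (rn5) with a median ratio of 0.153, and 1 of the 105 tested had an unadjusted p under 0.05.

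The counts for single genes stand beside the same 6.15% of all tested CHH sites. Among named genes, Tbc1d5 on chromosome 9, which encodes a GTPase-activating protein for Rab proteins in endosomal traffic, had 19 sites with ratios from 0.110 to 0.772 and a median of 0.226. None of its 16 tested sites had an unadjusted p under 0.05. Ccdc18 on chromosome 14, a coiled-coil protein gene, had 15 sites with a median of 0.168, and 2 of 14 tested had an unadjusted p under 0.05, both lower in AI rats. At these, positions 2532017 and 2532072, the means were 0.0730 against 0.213 and 0.151 against 0.266 in AI and AU rats, with exact permutation p of 0.0163 and 0.0401 and adjusted p of 0.590 and 0.746, and the first entered the test by the AU mean alone. Thsd7b on chromosome 13, a thrombospondin type I domain gene, had 10 sites with a median of 0.143, and 1 of the 10 tested, higher in AI rats, had an unadjusted p under 0.05 (exact permutation p = 0.0421, adjusted p = 0.746). Abca13 on chromosome 14, an ABC lipid transporter gene, had 9 sites with a median of 0.173, and 2 of the 9 tested had an unadjusted p under 0.05, both lower in AI rats (means of 0.04 against 0.175 and 0.0917 against 0.306). Neither was under 0.05 in the exact permutation test (p = 0.0581 and 0.0619), the adjusted p was 0.746 for both, and both entered the test by the AU mean alone.

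The following genes of the list, picked after their values were seen, had no site with an unadjusted p under 0.05 for impairment. Cacnb4, the β4 subunit of voltage-gated calcium channels, had 7 sites on chromosome 3, with ratios from 0.109 to 0.388 and medians of 0.224 in AI and 0.212 in AU rats. Fgf14, whose protein binds voltage-gated sodium channels, had 5 sites on chromosome 15, with medians of 0.210 in AI and 0.159 in AU rats. Kcnh8, a voltage-gated potassium channel gene, had 3 sites on chromosome 9 with medians of 0.208 and 0.188. Hecw1, an E3 ubiquitin ligase gene, had 8 sites on chromosome 17 with medians of 0.196 and 0.178, and Necab1, a neuronal calcium-binding protein gene, had 4 on chromosome 5 with medians of 0.213 and 0.266. Fam13a had 9 sites on chromosome 4 (medians 0.153 and 0.176), Fndc3a 11 on chromosome 15 (0.157 and 0.132), and Ghr, the growth hormone receptor gene, 5 on chromosome 2 (0.251 and 0.248).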

How the data were processed

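Ratios came from whole genome bisulfite sequencing of mPFC DNA of 30 rats. The authors trimmed reads with Trimmomatic, checked them with FastQC, filtered for unconverted bases with cscall, aligned to rn5 (Rnor_5.0) with BSMAP and called ratios with cscall in the DMAP2 pipeline; versions are not given in the sources used here. How that filter treated methylated non-CG cytosines is not given in the sources used here. The deposited values are fractions (0 to 1) per rat and cytosine, with at least 5 reads per rat and 3 rats per group. Columns with the authors' group means and SDs were not used.

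Members, lists and named sites (the 8 longest runs, the 5 smallest p per comparison and all impairment sites past the adjustment, extremes of SD, limits of the rule) were chosen with earlier results of these data known. Genes were picked for their number of sites or their known role after their values were seen. Means were rounded to 6 decimals before the limits were applied. The test at each site was Welch's test for unequal variances (2-sided), as in the study for age and in place of its correlation with trials to criterion for impairment, with Benjamini-Hochberg adjustment, at CHH sites with 3 rats per group and a mean over 0.1 in at least 1 group. Sites without spread in either group could not be tested (257 for age, 121 for impairment, no members) and entered only the shares by limma and permutation over all sites. Ratios counted as the same within 1e-06. Single sites had exact permutation tests, and in both comparisons every site also had a permutation test (100000 resamples where arrangements were too many). The tests were checked on simulated data. Alternatives were limma (also with the number series), permutation tests, other filters and windows, and leaving out each series. Depth per rat and site is unknown, so no other coverage minimum was tried. No genome or annotation of rn5 was used, so no sequence is printed and exons, introns and repeats are not given. R 4.3.3 with limma 3.58.1 and Python 3.11.15 with matplotlib 3.10.9, numpy 2.4.6, pandas 2.3.3 and scipy 1.17.1 were used.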

Additional observations from a re-analysis of the deposited data

Results flagged for a closer look

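Of 32 groups of 4 to 10 rats examined at the named sites and over the means per rat, 5 held a rat far from the others by Dixon's criterion. In unselected groups chance gives about 1 in 20. The named sites were picked by their p or SD, and some of their groups were at 0 but for 1 rat. The count of 5 can therefore not be read against that rate. In all 5 groups the number of reads behind the ratio is unknown. Young replicate 7 had a ratio of 0.667 at position 11254720 of chromosome 9, below the other 7 young rats. At position 74105996 of chromosome 1, AU replicate 3 was at 0.111 and the other 4 AU rats at 0. At position 188038131 of chromosome 1, AU replicate 5 was at 0.714, above the other 6 AU rats. At position 68560289 of chromosome 5, AI replicate 8 was at 0.111 and the other 4 AI rats at 0. At position 54911311 of chromosome 1, young replicate 6 was at 1, above the other 9 young rats. No mean per rat was far from its group in young or AI rats, and AU rats, more than 10, were not examined over the means.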

How the results depend on the processing

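The share of sites with an unadjusted p under 0.05 stayed within 1.5 times its value under every alternative run, from 4.66% to 8.78% for age and from 4.28% to 6.52% for impairment. Counts after adjustment moved more. For age they were 77 by Welch's test, 108 by limma, 98 by limma with the series as a covariate, 36 without the ratio filter, 441 without the cap, 38 at sites with the same ratios in both sets, 32 with 1 site per run and 4 without series A. For impairment they were 21, and 40, 41, 11, 3 (same ratios), 8 (1 site per run) and 0 without series A, where 138 of 3135 sites had an unadjusted p under 0.05 by Welch's test; the cause was not tested. By limma the age split turned from 505 higher and 307 lower to 411 and 464, and by the permutation test to 312 and 401; the impairment split turned from 266 and 282 to 398 and 332 and to 286 and 235. At sites with a value in every rat the mean per rat rose to 0.259 in young and 0.257 in aged rats, and to 0.248 in AI and 0.247 in AU rats where every aged rat had one. A window of 0.2 to 0.8 gave 4846 sites, and a minimum of 20 rats 4670. With gaps under 300 bp 24.1% of the sites were in runs, and under 100 bp 12.3%. The adjusted Welch p missed the threshold at 3 of the 5 impairment sites named by p (0.0628, 0.103 and 0.119). The share of partially methylated sites at 1 and 11 bp in sites with all 30 rats (26.7% and 17.7%), chosen after seeing the data, rose by over 1.5 times. No paired analysis was possible because the rat identifiers give no numbers shared between groups. Unknown depth limits every ratio of 1 rat.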
